A study of Mus musculus with 9 samples.

Results

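The genes described here, in midbrain dopamine (DA) neurons, encode subunits of the fast receptors for glutamate, GABA, glycine and acetylcholine, and the metabotropic receptors for glutamate. They were chosen by symbol alone, as every gene of the deposited tables named Gria, Grid, Grik, Grin or Grm with a number, Gabr with a subunit letter, Glra or Glrb, or Chrn with a subunit letter. Antisense and pseudogene symbols (Grin1os and Chrna1os) were left out, which gave 67 of 47729 genes. The rule also took in 1 scaffold gene that is not itself a receptor.

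Midbrain DA neurons of mouse embryos (C57/Bl6 in the labels, C57BL/6J in the study's methods) at embryonic day 15.75 were isolated by fluorescence-activated cell sorting of YFP-positive cells, and their RNA was sequenced in bulk. All groups carried Pitx3-Cre/+, with Cre expressed from the Pitx3 gene that is active in these neurons, and the Rosa-lox-stop-lox-YFP reporter that Cre switches on. The groups differed in Dot1l, the methyltransferase of lysine 79 on histone H3, which was Dot1l(+/+) in 3 libraries, floxed on 1 allele, Dot1l(fl/+), in 3, and floxed on both alleles, Dot1l(fl/fl), in 2. Each library was a pool of embryos, so the spread between libraries is a spread between pools. A further sample, Dot1l(fl/fl) 3, was not analysed here.

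Glutamate opens AMPA, kainate and NMDA receptors, which are tetramers of subunits from 1 family each, and it acts more slowly through the G-protein-coupled metabotropic receptors. GABA-A, glycine and nicotinic acetylcholine receptors are pentamers, in which the choice of alpha, beta and other subunits sets the affinity, the speed and the drugs that bind. DA neurons are known for nicotinic receptors that contain the alpha6 and beta3 subunits, and for GABA-A receptors built around alpha3.

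Library totals ranged from 13616922 to 43674673 counts, with the lowest totals in the Dot1l(fl/fl) pair. Between 17607 and 19388 genes had counts, and a count of 0 allowed up to 3 counts, or between 0.0694 and 0.216 CPM (the usual unit of counts scaled to the normalised library total), for counting error only. Dot1l was at 105, 84.6 and 94.6 CPM in the Dot1l(+/+) libraries and at 75.5, 65.6 and 76.2 CPM in Dot1l(fl/+). It was at 64.9 CPM in the library labelled Dot1l(fl/fl) 1 and at 99.1 CPM in the library labelled Dot1l(fl/fl) 2, which lies within the Dot1l(+/+) range. The floxed part of Dot1l is a single exon, so these counts over the whole gene do not measure the deleted part, and whether that library carries the deletion was not tested. Because it stands apart from Dot1l(fl/fl) 1 in this gene, log2 fold changes on its omission are given beside those of Dot1l(fl/fl) against Dot1l(+/+). The 16 DA neuron markers (Th, Slc6a3, Slc18a2, Nr4a2, Pitx3 and others) were all detected and summed to between 7350 and 8321 CPM in Dot1l(+/+), between 7227 and 7776 CPM in Dot1l(fl/+) and between 5901 and 7026 CPM in Dot1l(fl/fl). Markers of other cells were present at lower summed levels, with GABAergic neuron markers between 204 and 268 CPM, glutamatergic neuron markers between 190 and 237 CPM, radial glia and progenitor markers between 223 and 264 CPM, astrocyte markers between 294 and 446 CPM, and microglia markers between 85.4 and 125 CPM over all 8 libraries. Most of the GABAergic sum was Slc32a1 (106 to 156 CPM) and Gad2 (80.45 to 107.9 CPM), while Gad1 stayed between 3.09 and 11.35 CPM. Nearly all of the astrocyte sum was Slc1a2 (284.5 to 434 CPM), while Aldh1l1 stayed between 3.43 and 9.71 CPM and Gja1 between 0.571 and 3.60 CPM. Vim (156 to 175.5 CPM) made up most of the radial glia and progenitor sum, while Sox2 and Hes5 stayed under 10 CPM. Serotonergic neuron, oligodendrocyte precursor, endothelial and pericyte, and blood markers each summed to between 0.656 and 40.0 CPM. In such bulk samples, fewer cells of a type and less RNA per cell cannot be told apart.

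Promoter sequences of RefSeq on GRCm38.p6 (250 bases before to 50 after each start) were matched for 47 of the 67 genes, and the start lay within 500 bases of the GENCODE gene start for 41 of them. Of the matched genes, 37 passed the filter on low counts and their windows held a median of 15 CpG (range 0 to 50). The 10 that did not pass held a median of 3 CpG (range 1 to 7), and all 32851 promoters in the table held a median of 7. The following 5 stretches show this range, each from the bases before both the RefSeq and the GENCODE start. Grik3 (kainate receptor GluK3) had the most CpG of all members and Grm8 (mGlu8) was the member whose Dot1l(fl/fl) libraries sat furthest above Dot1l(+/+) among genes with a computed fold. Glra2 and Gabra3 were the leading glycine and GABA-A alpha subunits, and Gabra6 had no count in any library. They are read 5′ to 3′ on the gene's strand from chr4:125490446-125490695 (+), chr6:28135179-28135396 (-), chrX:165327394-165327643 (-), chrX:72656849-72657057 (-) and chr11:42321073-42321322 (-), and capitals mark a TATAAA match on either strand.
Grik3: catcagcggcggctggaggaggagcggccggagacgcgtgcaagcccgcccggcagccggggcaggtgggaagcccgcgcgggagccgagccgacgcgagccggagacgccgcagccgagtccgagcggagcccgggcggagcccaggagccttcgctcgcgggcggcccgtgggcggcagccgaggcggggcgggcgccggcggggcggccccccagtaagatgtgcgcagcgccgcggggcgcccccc
Grm8: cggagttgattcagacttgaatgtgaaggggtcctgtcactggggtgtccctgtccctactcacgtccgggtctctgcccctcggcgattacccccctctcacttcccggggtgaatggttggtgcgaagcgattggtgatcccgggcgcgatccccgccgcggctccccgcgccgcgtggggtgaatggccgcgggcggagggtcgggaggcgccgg
Glra2: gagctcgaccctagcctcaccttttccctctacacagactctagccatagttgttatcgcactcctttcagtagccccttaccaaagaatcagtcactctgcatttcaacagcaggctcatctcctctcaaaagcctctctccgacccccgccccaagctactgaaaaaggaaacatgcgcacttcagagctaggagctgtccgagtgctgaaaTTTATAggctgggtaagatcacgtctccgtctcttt
Gabra3: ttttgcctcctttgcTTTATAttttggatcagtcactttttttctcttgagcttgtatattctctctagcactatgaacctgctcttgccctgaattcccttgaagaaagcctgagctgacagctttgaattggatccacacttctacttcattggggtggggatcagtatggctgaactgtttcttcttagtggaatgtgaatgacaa
Gabra6: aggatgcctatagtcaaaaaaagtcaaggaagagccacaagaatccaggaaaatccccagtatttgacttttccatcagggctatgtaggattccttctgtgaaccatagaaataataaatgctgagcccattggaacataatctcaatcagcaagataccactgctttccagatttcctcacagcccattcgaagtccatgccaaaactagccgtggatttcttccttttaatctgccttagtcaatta

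The Grik3 stretch of 250 bases had 42 CpG and a GC content of 82.0%, and the Grm8 stretch of 218 bases had 24 CpG and 68.4% GC. Those of Glra2 (8 CpG, 50.4% GC), Gabra6 (2 CpG, 40.8% GC) and Gabra3 (0 CpG in 209 bases, 41.2% GC) were poorer in both. A low CpG count was thus seen at Gabra3 and Gabra6 alike, although the former was among the most abundant members and the latter was not detected. Over both strands of the full windows, TATAAA was found in 5 of the 47 members, against 13.6% of all promoters. TAATCC, the site bound by bicoid-type homeodomain proteins such as Pitx3, was in 3 of them (Gabra2, Gabrr2 and Chrne), against 7.06% of all promoters. AAAGGTCA, the site of monomeric Nr4a2, was in 0 of them, against 1.51% of all promoters. TATAAA can share its last 3 letters with AAAGGTCA, which did not arise in these windows, and a match is a description of the window only.

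**Figure D1:**
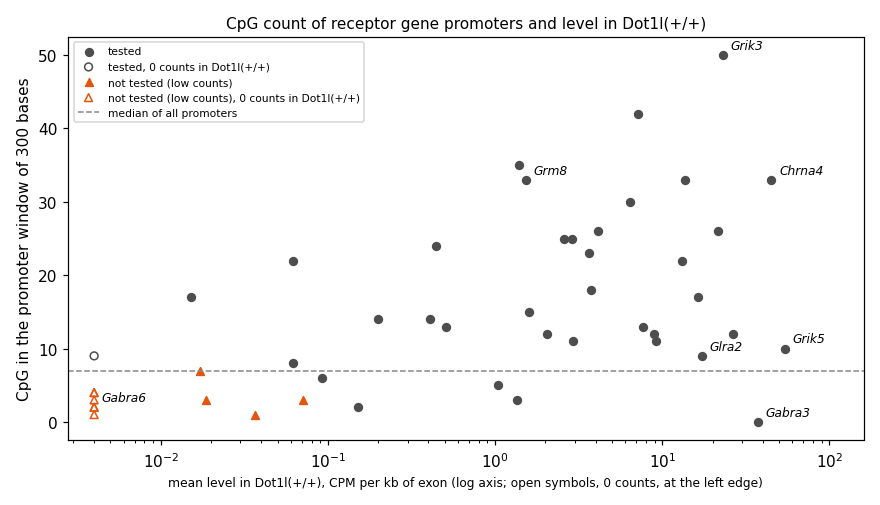
CpG count in the promoter window (vertical axis) against the mean level in Dot1l(+/+), in CPM per kb of exon on a log axis, for the 47 members with a promoter sequence. Circles are members that passed the filter on low counts, triangles are those that did not, open symbols had 0 counts in Dot1l(+/+), and the dashed line is the median of 7 over all promoters. The triangles lie between 1 and 7 CpG, while the circles spread from 0 (Gabra3) to 50 (Grik3).

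Of the 67 members, 55 had enough counts to be tested among 17988 genes. In the remaining 12, 7 had 0 counts in all 8 libraries: Gabra6 (a cerebellar granule cell subunit), Gabrp, Glra4, Grm6 (the receptor of retinal bipolar cells), Chrnd and Chrng (subunits of the muscle endplate receptor) and Chrna10 (a cochlear hair cell subunit). The other 5 reached at most 32 counts in a library (Gabrr3) or between 8 and 12 counts (Gabrd, Grin3b, Chrna1 and Chrne). The members that passed had a median exon length of 6043 bases against 3827 bases over all tested genes, so levels between genes are compared only as CPM per kb of exon.

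Chrna6 was the most abundant member in Dot1l(+/+), at 159 ± 16.7 CPM per kb (SD, n = 3), which put it at percentile 98.9 of the genes tested. Its lowest library, at 139.7 CPM per kb, lay above the highest of the next member. Grik5 followed at 54.1 ± 1.26 CPM per kb, and it did not overlap with Chrna4 at 45.0 ± 5.09 CPM per kb. Gabra3 (37.2 ± 0.658 CPM per kb, n = 3) lay below all libraries of Chrna4. A lower set of Chrnb2 (26.4 ± 1.18), Grik3 (23.1 ± 4.24) and Gria2 (21.6 ± 2.62 CPM per kb) overlapped each with the next, and all Gria2 libraries lay above those of Glra2. Per coding length the order of these genes was different, with Gria2 at 120.0 CPM per kb, Chrna4 at 111, Chrnb2 at 94.2, Gabra3 at 91.4 and Grik5 at 90.6. Toward the other end per exon length, Grm7 was at percentile 36.3 of the genes tested, Chrna7 at 34.6 and Grin2a at 24.6. When the coding length replaced the exon length, the leading subunit was the same in 12 of 12 families.

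**Figure D2:**
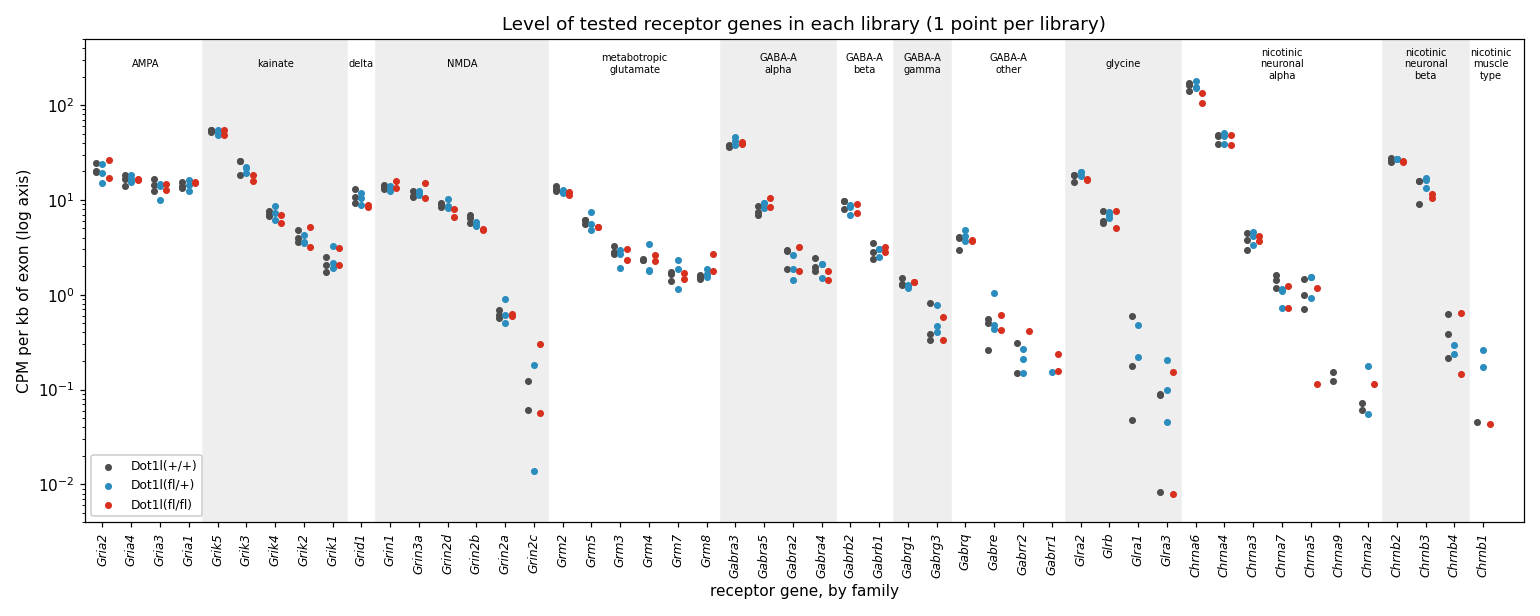
Level of 49 of the tested members in each library, in CPM per kb of exon on a log axis, grouped by family and coloured by genotype (1 point per library; libraries at 0 counts cannot be drawn on this axis). Chrna6 stands above all other members at 159 CPM per kb on average in Dot1l(+/+), and within most families the members span more than the genotypes do.

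The AMPA receptor genes, which carry most fast excitation, were all 4 expressed. In Dot1l(+/+), Gria2, whose edited subunit keeps calcium out, was at 21.6 ± 2.62 CPM per kb, Gria4 at 16.4 ± 2.10, Gria3 at 14.5 ± 2.07 and Gria1 at 14.3 ± 1.07 (SD, n = 3). Gria2 made up 32.4% ± 2.19 of the summed AMPA level in Dot1l(+/+) and 30.3% ± 2.72 in Dot1l(fl/+) (n = 3 each), next to 31.7% ± 5.415 in Dot1l(fl/fl) (n = 2). Per coding length its share in Dot1l(+/+) was larger, at 50.3%, because the Gria2 exon length of 15548 bases is mostly outside the coding sequence, and Gria3 (51.4 CPM per kb) then lay above Gria4 (36.2). Its level differed between the Dot1l(fl/fl) libraries, at 266 and 405 CPM, which lie below and above the Dot1l(+/+) libraries (383, 317 and 309 CPM). The fold changes of all 4 between Dot1l(fl/fl) and Dot1l(+/+) lay between -0.06 ± 0.15 for Gria3 and 0.10 ± 0.13 for Gria1 (log2 ± SE). On omission of the library labelled Dot1l(fl/fl) 2, Gria2 was at -0.34 ± 0.16 (edgeR unadjusted p = 0.0403, adjusted p = 0.413), while the other 3 lay between -0.17 ± 0.17 for Gria3 and 0.08 ± 0.15 for Gria1.

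Kainate receptors shape both sides of the synapse, and Grik5, whose product needs a partner of the GluK1 to GluK3 group to form a channel, led this family. It took 59.8% ± 2.10 of the summed level in Dot1l(+/+), 60.0% ± 3.45 in the Dot1l(fl/+) libraries and 63.0% ± 3.45 in Dot1l(fl/fl), in a range of 57.57% to 65.45% over the 8 libraries. Grik3, a low-affinity partner, was the next at 25.4% ± 3.39 in Dot1l(+/+), 24.4% ± 1.84 in the Dot1l(fl/+) libraries and 20.97% ± 2.92 in Dot1l(fl/fl). Grik4 was at 7.19 ± 0.422 CPM per kb in Dot1l(+/+), above Grik2 at 4.13 ± 0.602 and Grik1 at 2.09 ± 0.361 (n = 3). Per coding length Grik2 (18.5 CPM per kb) lay above Grik4 (14.95).

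Grid1 encodes a delta receptor, of a class that acts as synaptic organiser more than as glutamate-gated channel. It was at 11.0 ± 1.79 CPM per kb in Dot1l(+/+), 10.4 ± 1.56 in Dot1l(fl/+) (n = 3 each) and 8.58 ± 0.321 in Dot1l(fl/fl) (n = 2).

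In the NMDA family, the obligatory subunit gene Grin1 was at 13.7 ± 0.716 CPM per kb in Dot1l(+/+). Grin3a, whose subunit lowers calcium entry and is known as a juvenile form, was at 11.5 ± 0.893 CPM per kb, Grin2d, a slowly deactivating embryonic form, at 8.92 ± 0.418 and Grin2b, the other embryonic form, at 6.38 ± 0.602 (n = 3). Grin2a, which takes over after birth in many neurons, was at 0.622 ± 0.0587 CPM per kb. Among the 4 GluN2 genes in Dot1l(+/+), Grin2d took 55.9% ± 0.949 and Grin2b 39.8% ± 1.24 per kb of exon. This order turned round per coding length (Grin2b 66.9%, Grin2d 28.2%), since the Grin2b exons cover 24842 bases, and the cell's ratio of these 2 subunits therefore cannot be read from these counts.

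The summed GluN2 level was 16.0, 14.9 and 17.0 CPM per kb in Dot1l(+/+), 16.9, 14.4 and 14.5 in Dot1l(fl/+), and 12.4 and 13.5 in Dot1l(fl/fl). The Dot1l(fl/fl) values lay below all others. Over all 7 NMDA genes the sums overlapped, at 41.2 ± 2.48, 40.4 ± 1.62 and 40.4 ± 4.24 CPM per kb in the 3 genotypes.

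Metabotropic receptors were led by Grm2, a presynaptic receptor that inhibits release, at 13.2 ± 0.6997 CPM per kb in Dot1l(+/+), or 43.8% ± 1.47 of its family. Grm5, which couples to calcium release, was at 5.97 ± 0.298 CPM per kb and did not overlap with Grm3, the next at 2.93 ± 0.332 (n = 3). The presynaptic group of Grm4, Grm7 and Grm8 lay between 1.54 and 2.35 CPM per kb on average. Per coding length Grm8 (5.48 CPM per kb) and Grm4 (5.04) lay above Grm3 (3.39).

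Of the GABA-A alpha subunits, Gabra3 led in all 8 libraries. It took 70.6% ± 1.76 of the summed alpha level in Dot1l(+/+), 72.9% ± 2.34 in the Dot1l(fl/+) libraries and 70.6% ± 2.18 in Dot1l(fl/fl). These shares differed between genotypes by less than their range over libraries. Gabra5, whose receptors are largely extrasynaptic, was the next alpha subunit at 7.72 ± 0.870 CPM per kb in Dot1l(+/+) (n = 3). Gabrb2 was at 9.22 ± 1.04 CPM per kb and Gabrb1 at 2.90 ± 0.571, while Gabrg1 was at 1.36 ± 0.128 and Gabrg3 at 0.510 ± 0.265.

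The less common GABA-A subunits were led by Gabrq (theta), known from monoaminergic cell groups, at 3.67 ± 0.583 CPM per kb in Dot1l(+/+). Gabre (epsilon) was at 0.441 ± 0.155 CPM per kb and Gabrr2, a rho subunit of retinal type, at 0.152 ± 0.154, with its libraries at up to 28 counts. Gabra3, Gabrq and Gabre lie next to each other on the X chromosome.

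For glycine receptors, the embryonic alpha2 gene Glra2 was at 17.3 ± 1.71 CPM per kb in Dot1l(+/+), and the beta gene Glrb, which anchors the receptor to gephyrin, at 6.39 ± 1.04 (n = 3). Among the alpha genes Glra2 took between 96.45% and 99.95% in each of the 8 libraries. The adult spinal form Glra1 had between 0 and 50 counts in a library.

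Neuronal nicotinic receptors had the highest summed level of all groups, at 269, 221 and 262 CPM per kb in Dot1l(+/+), 252, 281 and 237 in Dot1l(fl/+), and 226 and 185 in Dot1l(fl/fl). The lower Dot1l(fl/fl) library lay below all others, and the higher one overlapped with Dot1l(+/+). Chrna6 and Chrna4, the alpha subunits of the high-affinity receptors that act on DA release, and their partners Chrnb2 and Chrnb3 took nearly all of it. Chrna6 was 75.5% ± 0.515 of the alpha level in Dot1l(+/+), 75.6% ± 1.53 in the Dot1l(fl/+) libraries and 71.0% ± 0.412 in Dot1l(fl/fl). Chrna4 was 21.4% ± 0.372, 21.3% ± 1.445 and 25.7% ± 0.308, in the same order. The lowest Chrna6 share among the Dot1l(+/+) and Dot1l(fl/+) libraries was above both Dot1l(fl/fl) shares, and Chrna4 showed the mirror image, which is how shares of a sum must behave.

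Chrnb2 made up 65.7% ± 5.55 of the beta level in Dot1l(+/+) and Chrnb3 33.2% ± 6.19, a spread that came from Dot1l(+/+) 2, where Chrnb3 was low. Chrna3, a ganglionic type subunit, was at 3.74 ± 0.756 CPM per kb and its neighbours in the genome, Chrna5 at 1.05 ± 0.381 and Chrnb4 at 0.407 ± 0.202, were lower (Dot1l(+/+), n = 3). Chrna7, which forms homomeric receptors, was at 1.40 ± 0.221 CPM per kb. Of the muscle type genes only Chrnb1 passed the filter, at 0 to 19 counts in a library. Muscle markers (5 of 10 tested, Myh8 and Tnnt3 at 0) summed to between 1.85 and 4.25 CPM.

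**Figure D3:**
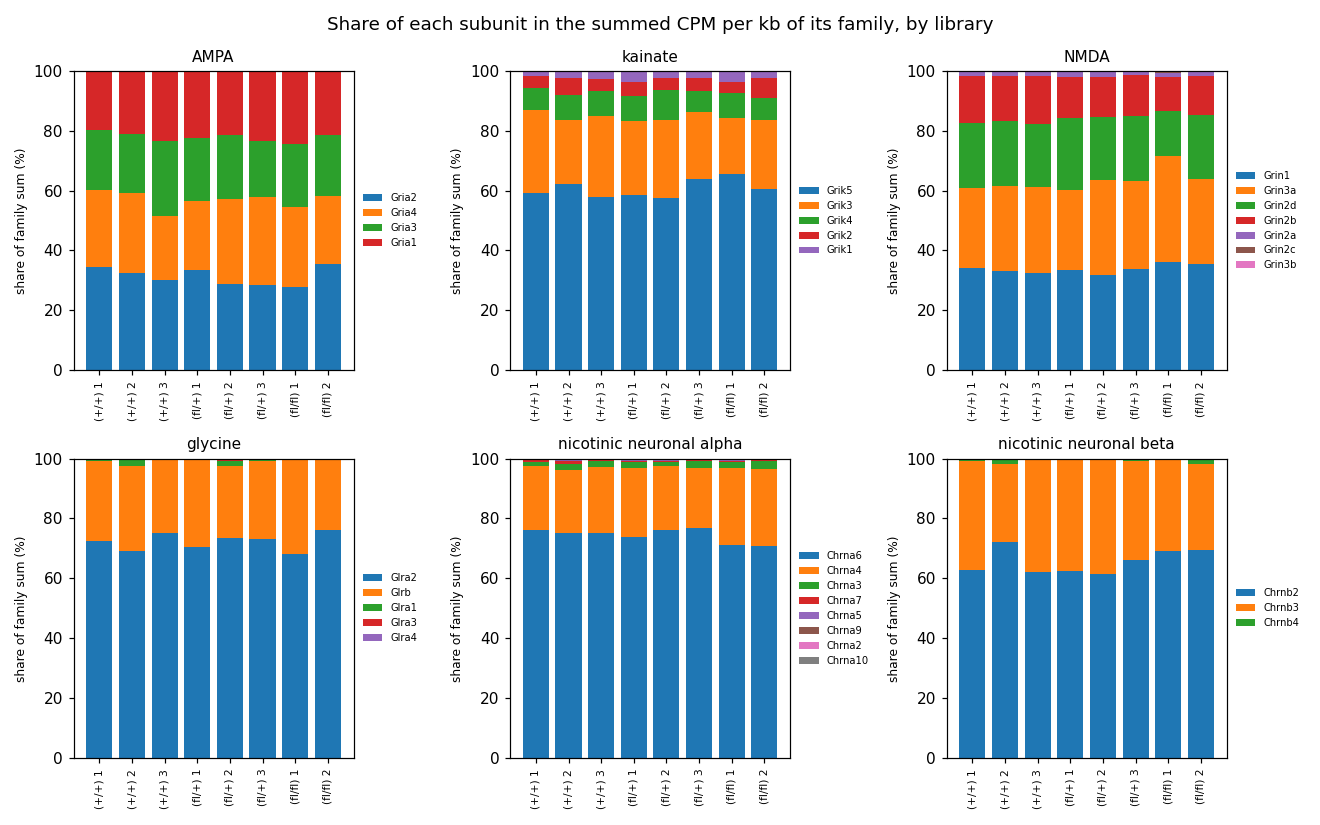
Share of each subunit (vertical axis, percent) in the summed CPM per kb of exon of its family, as 1 stacked bar per library for 6 families. Glra2 (67.99% to 76.03% with Glrb included) and Grik5 (57.57% to 65.45%) led in all 8 libraries, and the Chrna6 share was lowest in the libraries labelled Dot1l(fl/fl).

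Deletion of both Dot1l alleles was compared with Dot1l(+/+) by edgeR's quasi-likelihood test over all 17988 genes. At an adjusted p below 0.05, 0 of the 55 members were called, and 0% of all genes. The smallest adjusted p of a member was 0.248 and that of all genes 0.0985. At an unadjusted p below 0.05, 2 members were higher (Gabrr1 and Grm8, 3.64%, against 4.24% of all genes) and 5 were lower (Chrna6, Glra1, Grid1, Grik3 and Grin2b, 9.09%, against 5.03% of all genes). With the library labelled Dot1l(fl/fl) 2 set aside, a choice made after the data were seen, 1 of 56 members was higher (Grin3a, against 4.48% of all genes) and 4 were lower (Gria2, Grik3, Grin2b and Grin2d, against 6.61%). The Dot1l(fl/fl) libraries were all above the Dot1l(+/+) libraries for 4 members (7.27%, against 12.1% of all genes) and all below them for 7 members (12.7%, against 11.6%). The median log2 fold change was -0.011 over the members and -0.003 over all genes, and 25 of 55 members (45.5%, against 49.5%) were above 0. DESeq2 called 2 of the 26 members it gave an adjusted p (7.69%, against 2.93% of all such genes), Chrna6 and Grin2b. The count of members below all Dot1l(+/+) libraries was thus near the background, and that of members above them was under it. The low-count members Gabrr1 and Glra1, described below, are among the members named and limit what these numbers of members show.

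**Figure D4:**
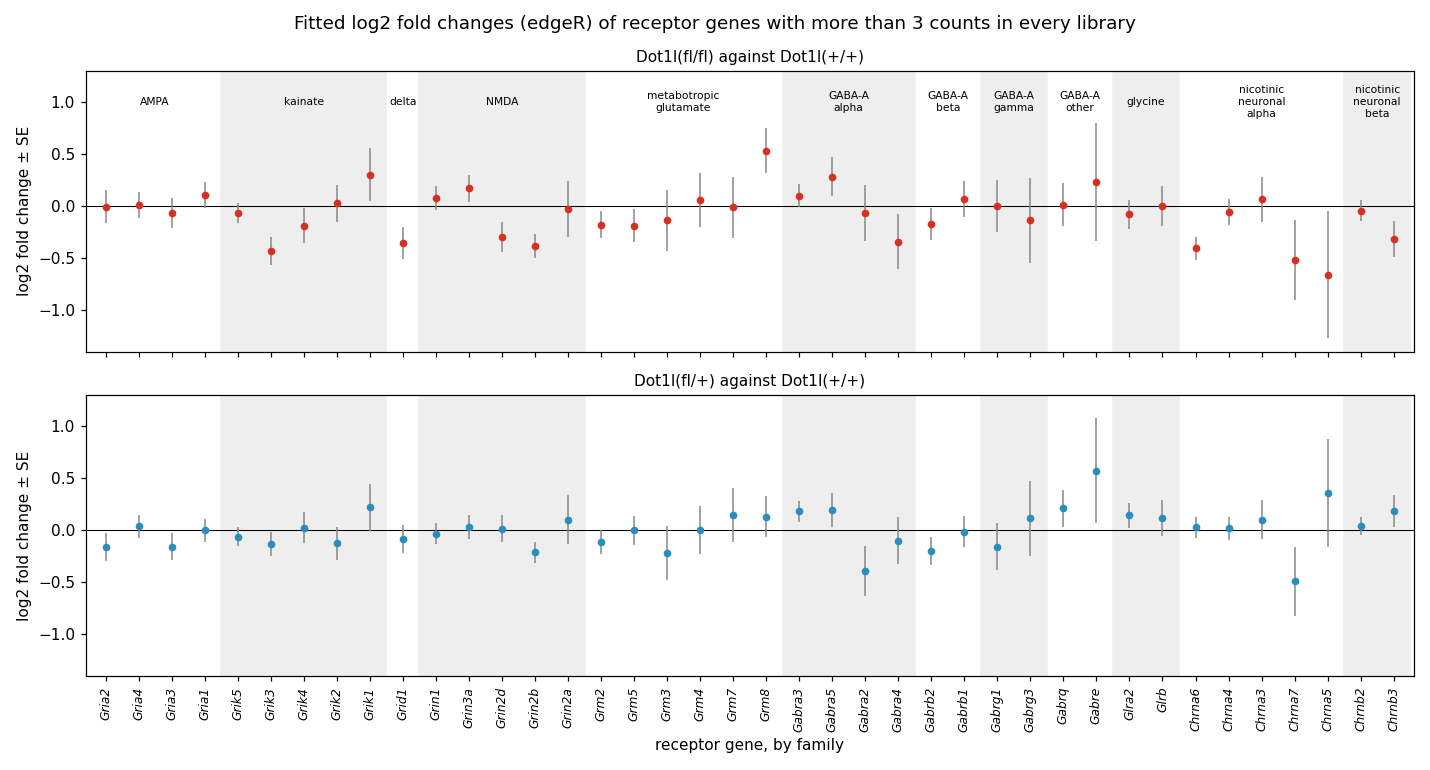
Fitted log2 fold change with its standard error (edgeR) for 40 members with more than 3 counts in every library, by family, for Dot1l(fl/fl) against Dot1l(+/+) above and Dot1l(fl/+) against Dot1l(+/+) below; both share the Dot1l(+/+) libraries. The plotted values reach 0.657 in size above (Chrna5, 0.18 on omission of the library labelled Dot1l(fl/fl) 2) and 0.572 below, and 0 members passed an adjusted p of 0.05.

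Chrna6 had the smallest p of the members. It was at 497, 406 and 479 CPM in Dot1l(+/+), 448, 523 and 438 CPM in Dot1l(fl/+), and 391 and 304 CPM in Dot1l(fl/fl). Both Dot1l(fl/fl) libraries were below the other 6, although Dot1l(fl/fl) 1 came near Dot1l(+/+) 2. The log2 fold change against Dot1l(+/+) was -0.41 ± 0.11 (SE, edgeR unadjusted p = 0.00163, adjusted p = 0.248), and DESeq2 gave an adjusted p of 0.0346. It was -0.24 on omission of the library labelled Dot1l(fl/fl) 2 (edgeR adjusted p = 0.467) and -0.60 without Dot1l(fl/fl) 1, so the size rested on which Dot1l(fl/fl) library was used.

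Chrnb3 lies 3482 bases from Chrna6 on chromosome 8 (chr8:27368711-27399730 and chr8:27403212-27413944, GRCm38), and the genes are transcribed toward each other. Chrnb3 was at 101, 58.1 and 101 CPM in Dot1l(+/+), 104, 107 and 85.8 CPM in Dot1l(fl/+), and 72.9 and 66.6 CPM in Dot1l(fl/fl). Dot1l(+/+) 2 was the lowest of all libraries for this gene and the groups overlapped. The log2 fold change was -0.32 ± 0.17 (edgeR adjusted p = 0.601), -0.25 on omission of the library labelled Dot1l(fl/fl) 2, but -0.54 without Dot1l(+/+) 2 (edgeR adjusted p = 0.0570).

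Many markers of DA neurons were lower in Dot1l(fl/fl). Of the 16 markers tested, 11 were lower in Dot1l(fl/fl) at an unadjusted p below 0.05 (68.8%, against 5.03% of all genes) and 0 were higher (4.24% of all genes). Their median log2 fold change was -0.27, and their summed level did not overlap between Dot1l(+/+) (7350 to 8321 CPM) and Dot1l(fl/fl) (5901 to 7026 CPM). DESeq2 called 4 of the 15 it gave an adjusted p (Th, Nr4a2, En1 and En2, 26.7%, against 2.93% of all such genes). On omission of the library labelled Dot1l(fl/fl) 2, 6 markers were lower (37.5%, against 6.61% of all genes) and 1 was higher (6.25%, against 4.48%) at an unadjusted p below 0.05, and the median was -0.16. Of the GABAergic neuron markers, 1 of 10 (Slc32a1) was higher at an unadjusted p below 0.05 (10%, against 4.24% of all genes), their median log2 fold change was -0.25 (-0.31 on omission of the same library), and their summed level was between 210 and 244 CPM in Dot1l(+/+) and between 244 and 268 CPM in Dot1l(fl/fl). As given above, Slc32a1 and Gad2 made up most of the GABAergic sum. In Dot1l(fl/+) against Dot1l(+/+) the DA marker median was -0.08, beside 0.03 for Chrna6 and 0.19 for Chrnb3. The part of either marker list in the nicotinic receptor values was not tested.

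Grin2b was at 158, 143 and 173 CPM in Dot1l(+/+), 144, 131 and 134 CPM in Dot1l(fl/+), and 121 and 122 CPM in Dot1l(fl/fl). The Dot1l(fl/fl) libraries were below the other 6, and Dot1l(fl/+) lay in between with 1 library above the lowest Dot1l(+/+) library. Set against Dot1l(+/+), Dot1l(fl/fl) was at -0.39 ± 0.11 on the log2 scale (edgeR adjusted p = 0.266, DESeq2 adjusted p = 0.0264) and -0.39 on omission of the library labelled Dot1l(fl/fl) 2.

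The other embryonic GluN2 gene, Grin2d, was at 59.7, 56.5 and 62.0 CPM in Dot1l(+/+), 67.9, 55.1 and 57.2 CPM in Dot1l(fl/+), and 43.9 and 53.1 CPM in Dot1l(fl/fl). Its Dot1l(fl/fl) libraries were again the lowest, with a log2 fold change of -0.29 ± 0.14 (edgeR adjusted p = 0.547). It was -0.16 without Dot1l(fl/fl) 1 and -0.44 on omission of the library labelled Dot1l(fl/fl) 2, so the size rested on which library was used. Grin1 and Grin3a were not lower, at 0.08 ± 0.11 and 0.17 ± 0.13. With that library omitted they were at 0.195 ± 0.13 and 0.41 ± 0.13 (edgeR unadjusted p of Grin3a = 0.00301, adjusted p = 0.152). Of the Grin2d exon bases, 643 (9.66%) overlap Gm45441 on the opposite strand, and whether counting used strand is not given in the sources used here.

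Grik3 was at 229, 163 and 229 CPM in Dot1l(+/+), 199, 195 and 172 CPM in Dot1l(fl/+), and 143 and 164 CPM in Dot1l(fl/fl). Dot1l(+/+) 2 lay among the Dot1l(fl/fl) libraries, so the groups overlapped. The log2 fold change was -0.43 ± 0.13 (edgeR adjusted p = 0.269). It was -0.34 without Dot1l(fl/fl) 1 and -0.54 on omission of the library labelled Dot1l(fl/fl) 2. Without Dot1l(+/+) 2 it was -0.58 and passed the test (edgeR adjusted p = 0.0287). Leaving out the library that overlapped removes the overlap by itself, so this pass is no separate support for a difference. Grik5, the partner that leads the family, had a log2 fold change of -0.07 ± 0.10, and 0.03 ± 0.11 with the library labelled Dot1l(fl/fl) 2 omitted.

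Grid1 was at 63.8, 55.8 and 77.0 CPM in Dot1l(+/+), 71.0, 52.4 and 61.9 CPM in Dot1l(fl/+), and 52.5 and 49.8 CPM in Dot1l(fl/fl). Its Dot1l(fl/fl) libraries were below all Dot1l(+/+) libraries and reached the lowest Dot1l(fl/+) library. This gave a log2 fold change of -0.36 ± 0.16 (edgeR adjusted p = 0.477) and -0.32 on omission of the library labelled Dot1l(fl/fl) 2.

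Grm8 was the member on the higher side, at 15.1, 16.1 and 14.3 CPM in Dot1l(+/+), 18.4, 16.3 and 15.2 CPM in Dot1l(fl/+), and 17.4 and 26.6 CPM in Dot1l(fl/fl). The height came from the library labelled Dot1l(fl/fl) 2. The fitted difference was 0.53 ± 0.22 on the log2 scale (edgeR adjusted p = 0.439) with both libraries and 0.20 without that one. Gabra5, the remaining member among the 10 smallest p with a fold, was at 20.8, 22.3 and 25.8 CPM in Dot1l(+/+) and 24.9 and 31.2 CPM in Dot1l(fl/fl), which overlap (0.28 ± 0.18, edgeR adjusted p = 0.689, and 0.11 on omission of the library labelled Dot1l(fl/fl) 2).

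**Figure D5:**
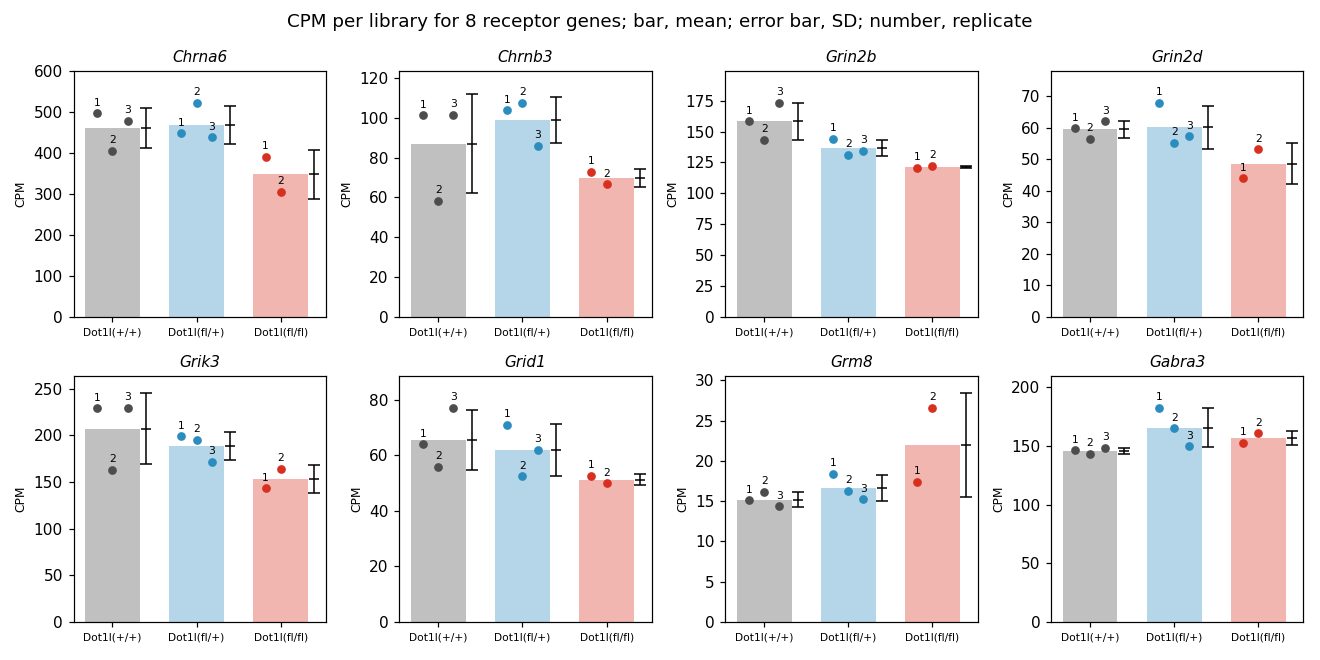
CPM (vertical axis from 0) of 8 members in each library, numbered by replicate, with the mean as a bar and the SD beside it (n = 3, 3 and 2). The Dot1l(fl/fl) points of Chrna6, Grin2b and Grin2d lie below all others, those of Grik3 and Chrnb3 overlap with Dot1l(+/+) 2, and the Grm8 mean of Dot1l(fl/fl) rests on 1 library at 26.6 CPM.

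The remaining members whose Dot1l(fl/fl) and Dot1l(+/+) libraries did not overlap had smaller differences. Gabra3 was 0.10 ± 0.11 higher on the log2 scale, with an edgeR adjusted p of 0.871, and 0.06 ± 0.13 on omission of the library labelled Dot1l(fl/fl) 2. Grm2 was at -0.18 ± 0.13 and Grm5 at -0.19 ± 0.16, with edgeR adjusted p-values of 0.738 and 0.797, and at -0.12 ± 0.16 and -0.19 ± 0.19 with that library omitted. Of the leading subunits, Chrna4 (-0.06 ± 0.13), Chrnb2 (-0.04 ± 0.10), Glra2 (-0.08 ± 0.14) and Glrb (0.003 ± 0.193) had differences below their standard errors. With that library omitted the values were 0.09 ± 0.14 for Chrna4, -0.03 ± 0.12 for Chrnb2, -0.05 ± 0.17 for Glra2 and 0.27 ± 0.22 for Glrb. Gria2 was at -0.004 ± 0.156 over its discordant Dot1l(fl/fl) libraries, and at the -0.34 given above with only Dot1l(fl/fl) 1. Of the Chrnb2 exon bases, 1365 (16.3%) overlap Adar on the opposite strand. The same holds for 1307 bases (13.5%) of Grin1 with Grin1os, 470 (9.6%) of Grm2 with Gm28111 and 143 of Grin2b with Gm14329, so without strand their reads could not be told apart.

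A few members with low counts had small p-values. Glra1 had 11, 50 and 5 counts in Dot1l(+/+), 0, 33 and 15 in Dot1l(fl/+), and 0 in both Dot1l(fl/fl) libraries. Against 3 counts over the group, it was at least 6.68-fold lower in Dot1l(fl/fl) than in Dot1l(+/+) (edgeR unadjusted p = 0.0332, adjusted p = 0.479). This bound takes the Dot1l(+/+) counts as exact. At 0.116 CPM in Dot1l(+/+) 3, Glra1 lay under the 3-count floors of the Dot1l(fl/fl) libraries (0.164 and 0.216 CPM). Its 0 counts there therefore do not set them apart from Dot1l(+/+) 3. Glra1 passed the filter on low counts through Dot1l(+/+) and Dot1l(fl/+) libraries, in which it was higher. These values are thus no separate support for a difference. Most of its Dot1l(+/+) counts were in 1 library, Dot1l(+/+) 2, and the unadjusted p was 0.0842 on omission of the library labelled Dot1l(fl/fl) 2.

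Gabrr1 had 0 counts in all Dot1l(+/+) libraries, 0, 0 and 10 in Dot1l(fl/+), and 10 and 5 in Dot1l(fl/fl). By the same floor, with the 15 counts of Dot1l(fl/fl) taken as exact, it was at least 16.5-fold higher (edgeR unadjusted p = 0.0496, adjusted p = 0.537). It passed the filter on low counts through the floxed libraries in which it was higher, so these values are no separate support for a difference. Chrna9, a hair cell subunit, had 12, 13 and 0 counts in Dot1l(+/+) and 0 in the other 5 libraries. With such genes at their bounds the median of the members stayed at -0.01.

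Heterozygous deletion was compared with the same Dot1l(+/+) libraries, so the values of the comparisons are set side by side only. In edgeR, 0 of 55 members passed an adjusted p of 0.05 (0% of all genes), and the smallest adjusted p of a member was 0.940. At an unadjusted p below 0.05, 0 members were higher (2.16% of all genes) and 1 was lower (Grin2b, against 2.86% of all genes). Libraries did not overlap for 1 higher member, Gabra3 (5.56% of all genes), and 2 lower members, Chrna7 and Gabrg1 (-0.16 ± 0.22), against 5.97% of all genes. DESeq2, run on all genes with a count, called 0 of 60 members and 0% of genes. The median log2 fold change was 0.02 over members and -0.01 over all genes, with 31 of 55 members above 0 (56.4%, against 49% of all genes).

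Grin2b was the member with an unadjusted p below 0.05, at -0.21 ± 0.10 on the log2 scale (edgeR unadjusted p = 0.0424, adjusted p = 0.940), beside -0.39 ± 0.11 in Dot1l(fl/fl). Gabra3 was at 146, 143 and 149 CPM in Dot1l(+/+) and 182, 165 and 150 CPM in Dot1l(fl/+), with Dot1l(fl/+) 3 just above the highest Dot1l(+/+) library. Its log2 fold change was 0.18 ± 0.10 (edgeR adjusted p = 0.940). Chrna7 was at 6.41, 7.26 and 5.27 CPM in Dot1l(+/+) and 5.24, 4.96 and 3.27 CPM in Dot1l(fl/+), with Dot1l(fl/+) 1 just under Dot1l(+/+) 3 (-0.49 ± 0.33, edgeR adjusted p = 0.942).

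Chrna6 and Chrnb3 were not lower in the heterozygotes, at 0.03 ± 0.10 and 0.19 ± 0.15, and the sign for Chrnb3 turned to -0.03 without Dot1l(+/+) 2. Gabra2 (-0.39 ± 0.24), Gabrb2 (-0.20 ± 0.14) and Gria3 (-0.16 ± 0.13) completed the 10 smallest p-values with a fold, each at an edgeR adjusted p of at least 0.940. Chrnb1 had 0, 0 and 5 counts in Dot1l(+/+) and 13, 0 and 19 in Dot1l(fl/+).

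Whether 2 floxed alleles differed from 1 was tested by setting Dot1l(fl/fl) against Dot1l(fl/+). Again 0 of 55 members passed an adjusted p of 0.05 in edgeR (0% of all genes), with a smallest member value of 0.925. At an unadjusted p below 0.05, 0 members were higher (1.86% of all genes) and 5 were lower (9.09%, against 2.16% of all genes), namely Chrna6, Chrnb3, Glra1, Grik3 and Grin2d. Glra1 had 0, 33 and 15 counts in Dot1l(fl/+) and 0 in both Dot1l(fl/fl) libraries, so its libraries overlapped. It passed the filter on low counts through groups in which it was higher, and its place among the 5 is no separate support. With the library labelled Dot1l(fl/fl) 2 set aside, 1 of 56 was higher (Grin3a, against 2.33%) and 4 were lower (Chrna6, Chrnb3, Grik3 and Grin2d, against 3.38% of all genes). Libraries did not overlap for 2 higher members (Gabrg1 and Gabrr1, 3.64%, against 10.2%) and 7 lower members (12.7%, against 9.57%). DESeq2 called 0 of 60 members, and 0.00422% of genes. The median log2 fold change was -0.03 over members and 0.00 over all genes.

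Chrna6 was again first, at -0.43 ± 0.11 (edgeR unadjusted p = 0.000908, adjusted p = 0.925). It was -0.27 on omission of the library labelled Dot1l(fl/fl) 2, but -0.63 without Dot1l(fl/fl) 1, where it passed the test (edgeR adjusted p = 0.0417). Chrnb3 was at -0.50 ± 0.17 (edgeR adjusted p = 0.998), with all 3 Dot1l(fl/+) libraries above both Dot1l(fl/fl) libraries, and at -0.44 on omission of the library labelled Dot1l(fl/fl) 2. Grik3 (-0.30 ± 0.13) and Grin2d (-0.31 ± 0.14) did not overlap either, while Grm8 (0.40 ± 0.22) and Grid1 (-0.27 ± 0.16) did, and Grm8 came to 0.07 without that library. Grik3 was then at -0.40 ± 0.15, Grin2d at -0.45 ± 0.18 and Grid1 at -0.23 ± 0.19. Without Dot1l(fl/fl) 1 instead, Grik3 was at -0.21 and Grin2d at -0.18. Both Dot1l(fl/fl) libraries were also below all Dot1l(fl/+) libraries for Glra2 (-0.22 ± 0.14), Grin2b (-0.17 ± 0.11) and Chrnb2 (-0.09 ± 0.10), which were at -0.19 ± 0.17, -0.18 ± 0.13 and -0.07 ± 0.12 with Dot1l(fl/fl) 1 alone. Chrna5 was at -1.01 ± 0.61, a value set by the library labelled Dot1l(fl/fl) 2 with 5 counts, and at -0.17 ± 0.58 on its omission.

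A trend over 0, 1 and 2 floxed alleles called 0 of 55 members in edgeR (0% of all genes). The smallest adjusted p of a member was 0.175, for Grin2b, whose log2 level differed by -0.19 ± 0.05 per allele. Grik3 was at -0.21 ± 0.06 (edgeR adjusted p = 0.217) and Chrna6 at -0.18 ± 0.06 per allele (edgeR adjusted p = 0.259). DESeq2 called 2 of 26 members for the trend, Grik3 and Grin2b (7.69%, against 3.88% of genes).

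Partners of these receptors were read from lists of auxiliary subunits, scaffolds and transmitter genes, in which 76 of 79 matched genes were tested. In edgeR 0 of them passed an adjusted p of 0.05 in Dot1l(fl/fl) against Dot1l(+/+), while DESeq2 called 5 of the 56 it gave an adjusted p (Shisa7, Shisa9, Lhfpl4, Plcl1 and Slc32a1, 8.93%, against 2.93% of all such genes). Of 34 AMPA, kainate and NMDA auxiliary subunits and scaffolds, 1 was higher (Cbln1, 2.94%, against 4.24% of all genes) and 7 were lower (20.6%, against 5.03%) at an unadjusted p below 0.05, and the median log2 fold change was -0.08. With the library labelled Dot1l(fl/fl) 2 set aside these counts were 1 (against 4.48% of all genes) and 5 (14.7%, against 6.61%), with a median of -0.095. Shisa9, an AMPA receptor auxiliary protein, had the smallest p. It was at 48.2, 42.1 and 42.1 CPM in Dot1l(+/+), 45.1, 44.1 and 40.8 CPM in Dot1l(fl/+), and 29.6 and 25.7 CPM in Dot1l(fl/fl), well below all other libraries (-0.67 ± 0.16, edgeR adjusted p = 0.1798), and its log2 fold change was -0.58 on omission of the library labelled Dot1l(fl/fl) 2. Cacng4, a TARP that traffics AMPA receptors, was at -0.26 ± 0.10 (edgeR adjusted p = 0.368), and at -0.22 with that library set aside.

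Among 17 GABA-A and glycine receptor scaffolds and trafficking genes, 3 were higher (Gabarap, Gabarapl1 and Gabarapl2, 17.6%, against 4.24% of all genes) and 4 lower (Plcl1, Shisa7, Lhfpl4 and Nlgn2, 23.5%, against 5.03%) at an unadjusted p below 0.05, with a median log2 fold change of -0.08. With the library labelled Dot1l(fl/fl) 2 set aside 3 were higher (against 4.48% of all genes) and 3 lower (against 6.61%), with a median of -0.01. Plcl1, which binds GABA-A beta and gamma subunits, was at -0.57 ± 0.17, Shisa7, a GABA-A and AMPA receptor partner, at -0.43 ± 0.13 and Lhfpl4, which brings GABA-A receptors to the synapse, at -0.33 ± 0.11. Their edgeR adjusted p-values were 0.266, 0.266 and 0.289, and their log2 fold changes with that library set aside were -0.455, -0.52 and -0.31. For all 3 genes both Dot1l(fl/fl) libraries were below all Dot1l(+/+) libraries, as for 11.6% of all genes. They were named for the smallest p in this comparison, so this is no separate support. Shisa7 is also on the list of AMPA, kainate and NMDA auxiliary subunits and scaffolds. It was counted as lower in both lists, so their shares are not independent.

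Of 8 tested genes for assembly and modulation of nicotinic receptors, 2 were higher (25%, against 4.24% of all genes) and 0 lower (against 5.03%) at an unadjusted p below 0.05, with a median log2 fold change of 0.34. The counts were the same with the library labelled Dot1l(fl/fl) 2 set aside (against 4.48% and 6.61% of all genes), with a median of 0.35. These were Lypd6b (0.80 ± 0.27, edgeR adjusted p = 0.314) and Lypd6 (1.41 ± 0.55, edgeR adjusted p = 0.397), which encode lynx-type proteins that bind nicotinic receptors. Lypd1, a further one, was at 0.30 ± 0.15, and with that library set aside the 3 genes were at 0.94, 1.56 and 0.28. The summed level of this list was between 126 and 130 CPM in Dot1l(+/+), 130 and 138 CPM in Dot1l(fl/+), and 148 and 161 CPM in Dot1l(fl/fl). Lypd6 was low, at 0.605 to 7.27 CPM over the libraries. A link between this list and the receptor subunits was not tested.

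Of 18 tested genes for transmitter synthesis, transport and breakdown, 4 were higher (Slc32a1, Chat, Glul and Slc5a7, 22.2%, against 4.24% of all genes) and 1 lower (Slc1a2, 5.56%, against 5.03%) at an unadjusted p below 0.05, with a median log2 fold change of 0.07. With the library labelled Dot1l(fl/fl) 2 set aside, 4 of 20 were higher (20%, against 4.48%) and 1 lower (5%, against 6.61%), with Ache in place of Slc5a7 (unadjusted p = 0.133), and a median of 0.03. Slc32a1, the vesicular GABA and glycine transporter, was at 113, 108 and 110 CPM in Dot1l(+/+) and 156 and 129 CPM in Dot1l(fl/fl) (0.37 ± 0.11, edgeR adjusted p = 0.269, and 0.499 with that library set aside). Slc1a2, a glutamate transporter of astrocytes, was at -0.38 ± 0.12 (edgeR adjusted p = 0.285), and at -0.355 with that library set aside. The other astrocyte markers tested, Aldh1l1 (-0.55 ± 0.40, edgeR adjusted p = 0.726) and Gja1, were under 10 CPM in every library. Chat, which makes acetylcholine, was listed at 0 CPM in the Dot1l(+/+) libraries and at 0.302, 0 and 1.23 CPM in Dot1l(fl/+). It was at 1.64 and 0.648 CPM in Dot1l(fl/fl) (edgeR adjusted p = 0.285). Chat passed the filter on low counts through floxed libraries in which it was higher. Its place among the 4 higher genes is therefore no separate support for a difference. Of the other cholinergic and motor neuron markers, Slc5a7, the choline transporter, was at 0.37 to 1.08 CPM in Dot1l(+/+) and at 2.02 and 2.45 CPM in Dot1l(fl/fl) (edgeR unadjusted p = 0.0405, adjusted p = 0.511). Slc18a3 (1.296 to 4.32 CPM) and Isl1 (1.21 to 3.61 CPM) were detected in all 8 libraries, Phox2a and Mnx1 were at 0 in all 8, and the whole list summed to between 5.14 and 9.18 CPM.

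Many members sit in clusters of receptor genes, and neighbours differed in level. The cluster on chromosome 5 (chr5:70751047-72149037) had Gabrb1 at 2.90 CPM per kb, Gabra2 at 2.57, Gabra4 at 2.04 and Gabrg1 at 1.36. Its Gabra4 and Gabrb1 genes are read in opposite directions from overlapping starts and share 46 exon bases. On chromosome 9, Chrna3 was at 3.74 CPM per kb, Chrna5 at 1.05 and Chrnb4 at 0.407, within chr9:54980880-55048779, and on chromosome 1 both Chrnd and Chrng (chr1:87190607-87212694) were at 0 in every library. All positions are on GRCm38.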

How the data were processed

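RNA of YFP-positive midbrain DA neurons was sequenced, and the 8 libraries with per-gene counts were grouped by the Dot1l genotype in their labels (Dot1l(+/+) n = 3, Dot1l(fl/+) n = 3, Dot1l(fl/fl) n = 2). The deposited values are raw read counts per Ensembl gene, which the authors made from directional libraries. The submitters' processing notes name bcl2fastq 2.17, Trimmomatic 0.30, DESeq2 1.10.1 and the GRCm38.p4 build. The aligner, the counter and its strand setting are not given in the sources used here. The authors' tables of comparisons hold DESeq2 means, fold changes and p-values, of which only the gene symbols and identifiers were used.

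Symbols were joined to the counts by gene identifier. No row lacked a gene name, so the unassigned share was 0, and 0 columns were left unmapped. Gene positions and exon lengths came from GENCODE M21 on GRCm38, which held 47224 identifiers (98.9%), and promoters from RefSeq on GRCm38.p6. Low counts were removed with filterByExpr, libraries were scaled by TMM, and all 8 libraries entered 1 quasi-likelihood fit (edgeR 4.0.16 with limma 3.58.1 in R 4.3.3), with Benjamini-Hochberg adjustment over 17988 genes and a threshold of 0.05. The code was tested on simulated data. A fold change is printed only where every library had more than 3 counts, and otherwise the counts or a bound against 3 counts over the group. SE is that of the fitted log2 fold change, and n counts libraries.

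Genes named in the text are the 3 highest of each family, members called by edgeR or DESeq2, the 10 members with the smallest p in each comparison, members without counts, and the 3 partner genes of each list with the smallest p. Others (non-overlapping members, members of small counts, cluster neighbours and the promoter set) were named after their values were seen. Some genes that these rules take in are not reported here. The members, lists and this rule were chosen with earlier results of these data known. Per the study's methods each pool was built from litters that gave all genotypes, but neither the labels nor the methods tie the replicate numbers to litters, so the numbers were used as a block only as an alternative and p-values measure the spread between these libraries, which may in part be technical. Alternatives tried were DESeq2 1.42.0, no filter and a mean count minimum of 50, other scalings, an offset for length and GC content, a replicate block, fits of only the genotypes compared, coding in place of exon length, and leaving out each library.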

Additional observations from a re-analysis of the deposited data

How the results depend on the processing

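With the settings of the report, edgeR called 0 of the 55 receptor genes in each comparison. For Dot1l(fl/fl) against Dot1l(+/+), 2 passed with no filter on low counts (Chrna6 at -0.41, adjusted p = 0.0334, and Grik3 at -0.44, adjusted p = 0.0401), 2 with DESeq2 (Chrna6 and Grin2b) and 1 with a replicate block plus an offset for length and GC content (Chrna6, adjusted p = 0.0145). Between 0 and 1 passed when a library was left out, the 1 being Grik3 without Dot1l(+/+) 2. For Dot1l(fl/fl) against Dot1l(fl/+), 1 passed with the replicate block plus offset (Chrna6, adjusted p = 0.0351), and between 0 and 1 when a library was left out (Chrna6 without Dot1l(fl/fl) 1). For the trend, 2 passed with no filter, 2 with DESeq2, and between 0 and 3 without a library (Grik3, Grin2b and Chrna6 without Dot1l(+/+) 2). Of all genes it gave an adjusted p, DESeq2 called 2.93% for Dot1l(fl/fl) against Dot1l(+/+) and 3.88% for the trend. For the other settings the share of all genes called is not given here. Those counts therefore do not show whether members passed more often than other genes. DESeq2 called 5 of the 56 partner genes it gave an adjusted p in Dot1l(fl/fl) against Dot1l(+/+) (8.93%, against 2.93% of all such genes). For the trend it called 6 partner genes, beside 3.88% of all such genes. In edgeR 0 partner genes were called in either. The median log2 fold change over the members lay between -0.071 and -0.014 for Dot1l(fl/fl) against Dot1l(+/+) and between -0.111 and -0.000 for Dot1l(fl/fl) against Dot1l(fl/+) when a library was left out. For Dot1l(fl/+) against Dot1l(+/+) it was 0.083 with the offset and 0.085 with the block plus offset. The log2 fold change of Chrnb3 in this comparison ranged from -0.033, without Dot1l(+/+) 2, to 0.317 when a library was left out. The cause of these shifts was not tested. The replicate block alone called 0 members in each comparison. Deviations of libraries with the same number had correlations of -0.031 to 0.0453, beside -0.0514 to 0.0449 for different numbers. With 2 Dot1l(fl/fl) libraries their deviations mirror each other, so these correlations cannot decide on pairing. As the labels do not tie the numbers to litters, they were not taken as pairs. With 1 Dot1l(fl/fl) library left, the lone sample is assumed to vary like the other groups. Only 2 Dot1l(fl/fl) libraries, the shallowest at 13616922 and 18298340 counts, limit the precision of their values.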
